A study of Mus musculus with 12 samples.

Results

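Nuclear genes for the subunits of the mitochondrial respiratory chain were examined in RNA from mouse cornea. Members were chosen by name, as symbols that begin with Ndufa, Ndufb, Ndufc, Ndufs or Ndufv and a number, Sdha to Sdhd, Uqcr, Cox4 to Cox8 or Atp5. Of the 28548 lines of the deposited table, 92 symbols matched. Ndufa4 and Ndufa4l2 were left out by name, 6 symbols with -ps in their ending were left out as pseudogene names, and Cox4i2, Cox6c2 and Ndufa11b were left out because their mean count was under 10. The remaining 81 genes form the set, with 37 genes of complex I, 4 of complex II, 8 of complex III, 15 of complex IV and 17 of complex V. The rule used symbols and the mean count over all libraries used, whatever their group. Cox6a2 passed the count limit only through the group given exosomes intravenously, described below. Among the genes nearest the count limit, Cox6b2 had a mean count of 12.9 and Ndufb4c of 13.4, while Cox6c2 had 5 and Cox4i2 had 3.545.

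All mice were wild type. The groups were mice with a dry eye disease (DED) model given stem cell-derived exosomes intravenously (3 libraries), mice with the DED model given the exosomes as an eye drop (2 libraries used), mice with the DED model and no exosomes (3 libraries), and mice without treatment (control, 3 libraries). Exosomes are small membrane vesicles that cells release. The labels used here name no group given a drop or an injection lacking exosomes, so an exosome effect and an effect of the route cannot be told apart, and they give no strain, age or sex. The third eye drop column equalled the mean of the other two in log2 on all 28548 lines, so it was left out. Nothing in the labels says that the libraries of a group came from separate mice, so p-values measure the spread between these libraries.

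The respiratory chain passes electrons from NADH and succinate to oxygen through complexes I to IV in the inner mitochondrial membrane and pumps protons as it does so. Complex V, the ATP synthase, lets the protons flow back and makes ATP. Complexes I, III, IV and V combine many nuclear-encoded subunits with a few encoded by mitochondrial DNA, whereas complex II is encoded by the nucleus alone. Core subunits carry out the redox or catalytic steps, and the mostly small accessory subunits stabilise and regulate the complexes. In the cornea, the epithelium and the endothelium need ATP for cell renewal and ion transport.

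The ETS family factor GABP and the factors NRF1 and YY1 are known to act at promoters of many of these genes, and their motifs were therefore searched in promoters from RefSeq (build GRCm38.p6, 250 bases before to 50 after each start), on both strands. Of the 81 members, 66 had a promoter in the table. The ETS motif CCGGAAG was present for 17 of the 66 (25.8%), against 9.9% of all 27025 genes with a promoter. The NRF1 motif GCATGCG was present for 11 (16.7%, against 4.0% of all genes) and the YY1 motif ATGGCGG for 10 (15.2%, against 4.7%). At least 1 of the 3 motifs was present for 31 members (47.0%, against 16.6%). In the run CGCATGCG, the NRF1 motif overlaps its own reverse complement. The stretches below, from 250 to 51 bases before the start on the minus strand, belong to 3 members that rose in the intravenous group, and capitals mark the motifs.
Atp5e, chr2:174464152-174464351: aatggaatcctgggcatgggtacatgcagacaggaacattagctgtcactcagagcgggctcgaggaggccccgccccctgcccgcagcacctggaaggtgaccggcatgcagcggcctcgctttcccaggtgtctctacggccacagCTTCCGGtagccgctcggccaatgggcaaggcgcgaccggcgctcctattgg
Ndufa6, chr15:82354342-82354541: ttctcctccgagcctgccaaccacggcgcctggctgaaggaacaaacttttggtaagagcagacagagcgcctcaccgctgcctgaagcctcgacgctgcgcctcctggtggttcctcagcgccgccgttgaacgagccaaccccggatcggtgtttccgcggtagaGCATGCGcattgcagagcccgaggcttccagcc
Cox6a1, chr5:115349009-115349208: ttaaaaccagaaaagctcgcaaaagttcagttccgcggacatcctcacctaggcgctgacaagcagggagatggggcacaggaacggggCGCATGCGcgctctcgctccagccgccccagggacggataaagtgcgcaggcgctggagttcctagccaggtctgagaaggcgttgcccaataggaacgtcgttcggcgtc
Atp5e carries the ETS motif on the opposite strand from base -102, counted from the start. Ndufa6 carries an NRF1 motif from base -83, and Cox6a1 carries the overlapping NRF1 pair from base -161. A motif match is a description of letters and not a measured binding site. Members with a motif in this stretch and members without one had similar median log2 differences between intravenous and control libraries, 0.97 over 10 genes and 0.88 over 56 genes.

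Library totals ran from 8956553 to 9501661 counts in the intravenous group, from 12571461 to 13687074 in the eye drop group, from 10355125 to 14263045 in the DED group and from 10893978 to 12972945 in the controls. Krt12, the keratin of corneal epithelium, had 389589 to 478998 normalized counts in the intravenous group, 378901 to 380839 in the eye drop group, 382733 to 516397 in the DED group and 265116 to 388330 in the controls. The intravenous values of Krt12 lay just above the controls. The sum of 9 epithelial markers, Krt12 included, was 820599.9 to 976369.7 in the intravenous group and 872919.8 to 885623.9 in the eye drop group. It was 796791.0 to 1012702.5 in the DED group and 651635.1 to 948924.5 in the controls, and every group overlapped the controls. Markers of neighbouring tissues were uneven between libraries. The sum of 12 skeletal muscle markers was 8862.0, 5224.6 and 259.7 normalized counts in the intravenous libraries, 117.5 to 197.4 in the eye drop group, 155.1 to 1155.7 in the DED group and 273.4 to 492.6 in the controls. All 12 were detected in the intravenous and control groups, Actn3 was at 0 in the eye drop group and Myh4 at 0 in the DED group. The third DED library had the highest sum of 12 retina markers, 22103.6, and the second eye drop library the highest sum of 12 lens markers, 21220.2. All listed markers of keratocytes, corneal endothelium and immune cells were detected in every group, apart from Cd79a, which was at 0 in the eye drop group. The sum of 10 keratocyte markers was 6352.6 to 8353.5 in the intravenous group, 5161.2 to 10451.0 in the eye drop group, 5158.5 to 10471.3 in the DED group and 3708.6 to 5543.1 in the controls. The sum of 6 corneal endothelium markers was 4537.1 to 10614.2 in the intravenous group, 4306.9 to 10599.2 in the eye drop group, 4834.5 to 8628.7 in the DED group and 3661.0 to 4027.1 in the controls. The sum of 8 immune cell markers was 1147.3 to 1604.8 in the intravenous group, 1335.3 to 1620.0 in the eye drop group, 1169.9 to 1660.9 in the DED group and 860.9 to 1053.7 in the controls. The endothelial and immune sums of all 3 DED model groups, and the keratocyte sum of the intravenous group, thus lay wholly above the controls, as the member medians did, and their part in the values of the members was not tested. With library totals the intravenous sums overlapped the controls in all 3 lists, with 5521.1 to 7696.2 against 4071.5 to 5948.2 for keratocytes, 3836.1 to 9224.9 against 3928.5 to 4421.1 for the endothelium and 970.0 to 1394.8 against 923.8 to 1235.5 for immune cells. In tissue RNA, more cells of a type and more RNA per cell cannot be told apart.

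The members varied together across libraries, and the first 2 intravenous libraries stood highest. Counts were scaled by median-of-ratios size factors, and each gene was expressed as log2(normalized count + 1) minus its mean over the 11 libraries. The median of this value over the 81 members was 0.58, 0.78 and 0.01 in the intravenous libraries, -0.15 and 0.03 in the eye drop libraries, -0.12, 0.08 and 0.07 in the DED libraries, and -0.67, -0.17 and -0.36 in the controls. Every library of mice with the DED model, with or without exosomes, lay above every control. With library totals in place of size factors this did not hold, since the third intravenous library was at -0.19 and the first eye drop library at -0.16, inside the control range of -0.44 to -0.07. The third intravenous library lay within the range of the DED and eye drop libraries, apart from the other two of its group. As a share of all counts, the members took 1.12%, 1.17% and 0.73% in the intravenous libraries, 0.78% and 0.88% in the eye drop libraries, 0.82%, 0.87% and 0.91% in the DED libraries, and 0.66%, 0.81% and 0.75% in the controls. By this share the third intravenous library and the first eye drop library lay inside the control range. Within groups, members deviated together: the deviations of 2 members from their group means had a mean correlation of 0.71 over the 11 libraries, which share one scaling per library.

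**Figure D1:**
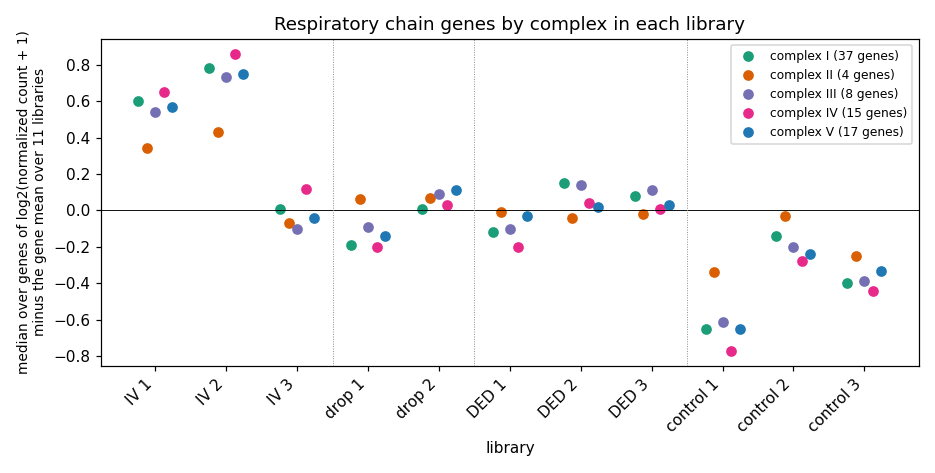
Median over the genes of each complex of log2(normalized count + 1) minus the gene mean (y axis), in each of the 11 libraries (x axis; IV, intravenous; drop, eye drop). The first 2 intravenous libraries are the highest, the third is near 0, and the 3 controls are the lowest for complexes III, IV and V, with complex II (orange) closest to 0 in the first 2 intravenous libraries and in control 1.

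Levels between genes were compared per kilobase of transcript, as the mean over the 11 libraries of the normalized count divided by length. The highest were Atp5e with 5054 per kilobase, Cox4i1 with 4716, Cox6b1 with 4511, Uqcrh with 3991 and Atp5b with 3855. These encode the epsilon subunit of ATP synthase, a pair of complex IV subunits, the hinge protein of complex III and the catalytic beta subunit of ATP synthase. The lowest were Ndufb2 with 12.2, Cox6b2 with 31.2 and Ndufb4c with 34.1 per kilobase. Cox6b2 is the testis isoform of its subunit, and Ndufb4c is annotated as a processed pseudogene, so its reads may be shared with Ndufb4.

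Between intravenous and control corneas, 57 of the 81 members rose (70.4%) and 0 fell (limma, adjusted p under 0.05 over all 21203 genes tested). Of all genes tested, 11.3% passed in either direction and 6.66% were higher. The groups differ both in the DED model and in the exosome injection, and this comparison cannot tell these apart. The fitted difference was above 0 for 78 members (49.5% of all genes), with a median of 0.89 over the members and -0.01 over all genes in log2. For 60 members, all 3 intravenous libraries lay above all 3 controls, against 15.1% of all genes. With scaling by library totals the median of all genes shifted to -0.30 and that of the members to 0.54, and 34 members rose, against 2.99% of all genes, while 0 fell, against 18.1% of all genes. The difference was then above 0 for 71 members, and 20 members lay wholly above the controls (6.75% of all genes) and 2 wholly below (27.3%). On unscaled counts, where the intravenous libraries had the lowest totals, 2 members were called higher and 4 lower. Of all genes, 28.3% were then called in either direction and 1.17% higher. Without control 1 the count of members higher was 7 (0.857% of all genes), and without control 3 it was 35 (2.96%). Without intravenous 1 it was 26 (2.73%), without intravenous 2 it was 29 (3.03%), and without intravenous 3 it was 71 (11.7%). The share of all genes thus moved with the count of members. The genes that kept their call whichever of the 11 libraries was left out were Ndufa6, Ndufb4, Ndufs4, Cox5b, Cox6c, Cox7a2 and Atp5e.

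**Figure D2:**
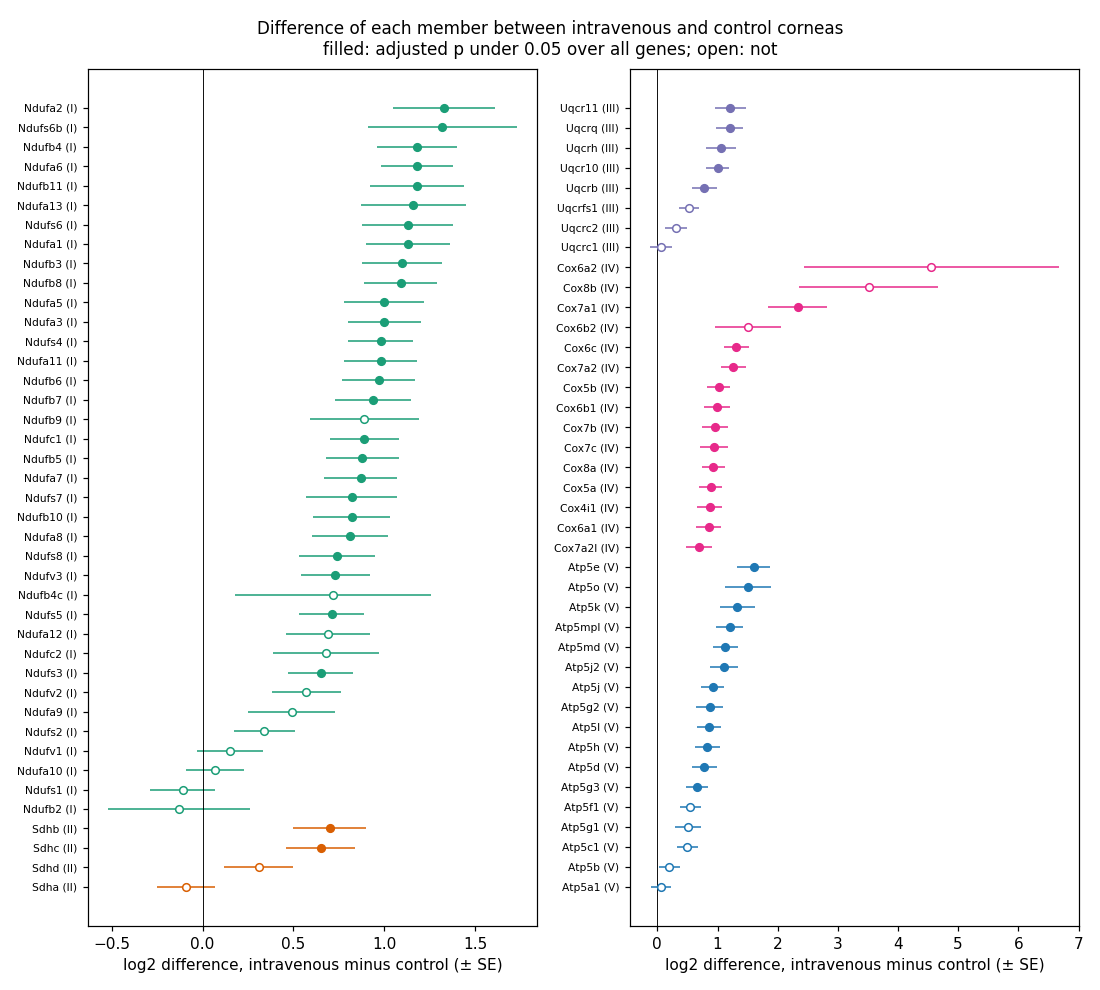
Fitted log2 difference between intravenous and control corneas (x axis, points) with its SE (bars) for the 81 members (rows, complex in brackets, sorted within each complex). Filled points passed an adjusted p of 0.05 over all genes and open points did not: 57 are filled, all to the right of 0.

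In complex I, the NADH dehydrogenase, 26 of 37 genes rose in the intravenous group, with a median log2 difference of 0.88 (library totals, 15 genes and 0.54). Of the 28 accessory subunits 22 rose, with a median of 0.95, and of the 7 core subunits 3 rose, with a median of 0.57. With library totals these counts were 15 and 0. Ndufa6, an accessory subunit that binds the mitochondrial acyl carrier protein, had 1126, 1274 and 756 normalized counts in the intravenous libraries, 629.8 and 667 in the eye drop libraries, 551, 804 and 654 in the DED libraries and 408, 498 and 461 in the control libraries. All intravenous libraries exceeded all controls, and the third lay within the DED range. The intravenous mean was 1052 ± 267 and the control mean 456 ± 44.8 (SD, n = 3 each), a 2.26-fold difference by limma (log2 difference 1.18 ± 0.20 SE, adjusted p = 0.00423). Ndufb4, a membrane arm subunit, had 1323, 1265 and 721 normalized counts in the intravenous libraries, against 393, 536 and 489.8 in the control libraries (log2 difference 1.18 ± 0.22 SE, adjusted p = 0.00531, limma). Ndufs4, an accessory subunit whose loss causes a Leigh-like encephalopathy in mice, had 1404, 1635 and 979 normalized counts in the intravenous libraries, against 609.7, 688 and 692 in the control libraries (log2 difference 0.98 ± 0.18 SE, adjusted p = 0.00581, limma). In both genes the groups did not overlap.

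Ndufb11 and Ndufb8, also subunits of the membrane arm, rose as well. Ndufb11 had 3178, 3495 and 1580.2 normalized counts in the intravenous libraries, against 985, 1354 and 1129 in the control libraries (log2 difference 1.18 ± 0.26 SE, adjusted p = 0.013, limma). The third intravenous library lay within the DED range and above every control. Ndufb8 had 677, 692 and 592 normalized counts in the intravenous libraries, against 238, 421 and 288 in the control libraries (log2 difference 1.09 ± 0.20 SE, adjusted p = 0.00581, limma), with the 3 intravenous libraries close together. Among the core subunits that hold iron-sulfur clusters, Ndufs7 had 792, 887 and 588 normalized counts in the intravenous libraries, against 301, 612 and 405 in the control libraries (log2 difference 0.82 ± 0.25 SE, adjusted p = 0.0412, limma), and the third intravenous library fell inside the control range. Ndufs8 had 1252, 1403 and 781 normalized counts in the intravenous libraries, against 611, 768 and 625 in the control libraries (log2 difference 0.74 ± 0.21 SE, adjusted p = 0.0344, limma). Ndufv2 did not pass, with 1308, 1573 and 950.4 normalized counts in the intravenous libraries, against 719.6, 828 and 994 in the control libraries (log2 difference 0.57 ± 0.19 SE, adjusted p = 0.0651, limma). Ndufs1, the largest core subunit, had 505, 546 and 363 normalized counts in the intravenous libraries, against 587, 443 and 482 in the control libraries, and the groups overlapped (log2 difference -0.11 ± 0.18 SE, adjusted p = 0.738, limma). Ndufb2 was low in every library, with 30.3, 35.1 and 18.9 normalized counts in the intravenous libraries, against 45.3, 25.1 and 23.4 in the control libraries (log2 difference -0.13 ± 0.39 SE, adjusted p = 0.863, limma). Of the retrocopies, Ndufs6b was called (log2 difference 1.32 ± 0.41 SE, adjusted p = 0.046, limma) and Ndufb4c was not (log2 difference 0.72 ± 0.54 SE, adjusted p = 0.398, limma), and reads of either may belong to the parent genes. Of the genes of complex I named here, Ndufs7, Ndufs8 and Ndufs6b lost the call with library totals.

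Complex II, succinate dehydrogenase, had the smallest median difference of the 5 complexes, 0.48 (library totals, 0.14), and 2 of its 4 genes rose (library totals, 0). Sdha, the flavoprotein that oxidises succinate, had 1323, 1258 and 1177 normalized counts in the intravenous libraries, 1415 and 1371 in the eye drop libraries, 1379, 1143 and 1338 in the DED libraries and 1141, 1494 and 1373 in the control libraries. Its groups overlapped. The intravenous mean was 1253 ± 73.1 and the control mean 1336 ± 179 (SD, n = 3 each), and the difference did not pass (log2 difference -0.09 ± 0.16 SE, adjusted p = 0.768, limma). Sdhb, the iron-sulfur subunit that takes the electrons from it, had 2006, 2108 and 1339 normalized counts in the intravenous libraries, against 951, 1257 and 1103 in the control libraries (log2 difference 0.70 ± 0.20 SE, adjusted p = 0.0324, limma). All 3 intravenous libraries exceeded the controls. Of the membrane anchors, Sdhc rose (log2 difference 0.65 ± 0.19 SE, adjusted p = 0.0358, limma) and Sdhd did not pass (log2 difference 0.31 ± 0.19 SE, adjusted p = 0.288, limma). Sdhd had 1126, 1085 and 698 normalized counts in the intravenous libraries, against 733, 846 and 718 in the control libraries, and the third intravenous library was below every control.

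In complex III, the cytochrome bc1 complex, the 5 small subunits all rose and the 3 larger ones (Uqcrc1, Uqcrc2 and the Rieske protein Uqcrfs1) did not pass. The median log2 difference was 1.06 over the small subunits and 0.31 over the larger ones (library totals, 0.72 and -0.04), and with library totals 4 of the small subunits passed, without Uqcrb. Uqcrq, which lies at the ubiquinone-binding part, had 1616, 1904 and 1246 normalized counts in the intravenous libraries, against 463, 957 and 705 in the control libraries (log2 difference 1.20 ± 0.23 SE, adjusted p = 0.00635, limma). Uqcr10 had 1628, 1675 and 1103 normalized counts in the intravenous libraries, against 600.0, 872 and 713 in the control libraries (log2 difference 1.00 ± 0.19 SE, adjusted p = 0.00677, limma). For both, each intravenous library exceeded each control. Uqcrh, the hinge protein beside cytochrome c1, had 3014, 3701 and 1539.5 normalized counts in the intravenous libraries, against 1097, 1319 and 1301 in the control libraries (log2 difference 1.06 ± 0.25 SE, adjusted p = 0.0156, limma), and Uqcrb had 1767, 2195 and 1271 normalized counts in the intravenous libraries, against 942, 879 and 1162 in the control libraries (log2 difference 0.78 ± 0.21 SE, adjusted p = 0.0271, limma). In these 2 genes the first pair of intravenous libraries stood above the third.

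In complex IV, cytochrome c oxidase, all 10 subunits of the widely expressed form rose, with log2 differences from 0.85 to 1.31 and a median of 0.95 (library totals, 0.61). With library totals 7 of the 10 passed, and Cox4i1, Cox6a1, Cox7c and, beside these 10, Cox7a2l did not. Cox6c had 3238, 3762 and 1991 normalized counts in the intravenous libraries, 1562 and 1991 in the eye drop libraries, 1564, 1699 and 1919 in the DED libraries and 1075, 1176 and 1257 in the control libraries. Its DED and eye drop libraries lay between the controls and the first 2 intravenous libraries, and none of them overlapped the controls. The intravenous mean was 2997 ± 910.1 and the control mean 1169 ± 91.3 (SD, n = 3 each), a 2.48-fold difference by limma (log2 difference 1.31 ± 0.21 SE, adjusted p = 0.00327). Cox7a2 had 1944, 2283 and 1255 normalized counts in the intravenous libraries, against 599, 830.0 and 811 in the control libraries (log2 difference 1.26 ± 0.21 SE, adjusted p = 0.00354, limma). Cox5b had 1702, 1979.6 and 1359.6 normalized counts in the intravenous libraries, against 697, 1012 and 780.1 in the control libraries (log2 difference 1.02 ± 0.19 SE, adjusted p = 0.00574, limma). For these genes the intravenous libraries were all above the controls. Cox4i1, which lies against the catalytic core, had 5069, 5801 and 3725 normalized counts in the intravenous libraries, against 1975, 3321 and 2730.0 in the control libraries (log2 difference 0.87 ± 0.21 SE, adjusted p = 0.0167, limma). Cox6a1, Cox6b1, Cox7b and Cox8a rose by 0.85, 0.99, 0.96 and 0.93 in log2. Cox7a2l, a factor that joins complexes III and IV into supercomplexes, rose (log2 difference 0.69 ± 0.21 SE, adjusted p = 0.0406, limma), and had 4168, 4952 and 2581 normalized counts in the intravenous libraries, against 2189, 2332 and 2481 in the control libraries.

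Isoforms of complex IV that are typical of heart and skeletal muscle followed another pattern across libraries. Cox6a2 had 359.6, 136 and 1.5 normalized counts in the intravenous libraries, 0.0 and 1.7 in the eye drop libraries, 0.0, 0.0 and 34.2 in the DED libraries and 0.0, 0.0 and 8.4 in the control libraries. The reads came almost wholly from the first 2 intravenous libraries and the third DED library, and the test did not pass (log2 difference 4.55 ± 2.12 SE, adjusted p = 0.203, limma, a size that depends on the pseudocount of 1). Cox8b had 174, 80.1 and 7.3 normalized counts in the intravenous libraries, 2.7 and 11.6 in the eye drop libraries, 9.1, 6.7 and 47.3 in the DED libraries and 0.7, 3.9 and 8.4 in the control libraries (log2 difference 3.51 ± 1.15 SE, adjusted p = 0.0762, limma, not passed). Cox7a1 had 132, 94.2 and 36.3 normalized counts in the intravenous libraries, 17.2 and 44.8 in the eye drop libraries, 24.3, 29.9 and 24.5 in the DED libraries and 7.4, 18.4 and 21.5 in the control libraries, and it rose (log2 difference 2.33 ± 0.49 SE, adjusted p = 0.00992, limma). Without intravenous 1 the Cox7a1 adjusted p was 0.0524, and without control 1 it was 0.0705. The first 2 intravenous libraries and the third DED library held the highest muscle marker sums and the highest values of Cox6a2 and Cox8b. For Cox7a1, the third DED library (24.5) was below the second eye drop library (44.8) and the third intravenous library (36.3). The part of muscle RNA in the values of the isoforms was not tested. Cox6b2, the testis isoform, did not pass (log2 difference 1.51 ± 0.55 SE, adjusted p = 0.0819, limma). For the set as a whole, the first 2 intravenous libraries had the highest muscle sums, 8862.0 and 5224.6, and also the highest member medians, 0.58 and 0.78. The third intravenous library had a muscle sum of 259.7, below every control. Its member median of 0.01 was above every control (with library totals, -0.19 and inside the control range). The part of muscle RNA in the values of the set was not tested. DED 3, eye drop 2 and intravenous 1 had the highest retina, lens and muscle sums, in that order. With these left out together, the median log2 difference was 0.82. Fewer members were then called, and so were fewer of all genes.

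**Figure D3:**
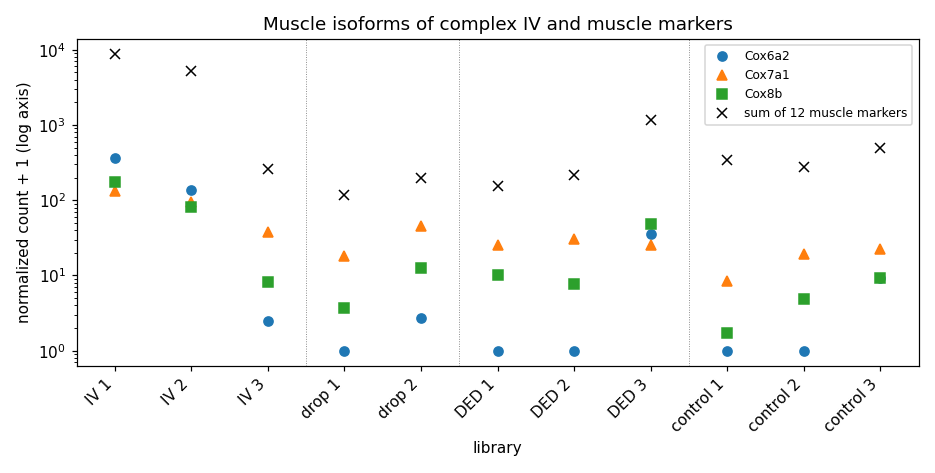
Normalized counts + 1 (y axis, log scale) of the muscle isoforms Cox6a2, Cox7a1 and Cox8b (coloured symbols) and the sum of 12 muscle markers (crosses) in each of the 11 libraries (x axis; IV, intravenous; drop, eye drop). The marker sum and all 3 isoforms are highest in the first 2 intravenous libraries, and the marker sum, Cox6a2 and Cox8b come next in DED 3.

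In complex V, the ATP synthase, 12 of 17 genes rose, with a median log2 difference of 0.86 (library totals, 7 genes and 0.51). Atp5e, the epsilon subunit of the central stalk, had 3668, 4619 and 2579 normalized counts in the intravenous libraries, 1354 and 1712 in the eye drop libraries, 1415, 2335 and 2094 in the DED libraries and 778, 1581 and 1269.9 in the control libraries. The third intravenous library was above every control and also above every DED library. The intravenous mean was 3622 ± 1021 and the control mean 1209 ± 405 (SD, n = 3 each), a 3.03-fold difference by limma (log2 difference 1.60 ± 0.27 SE, adjusted p = 0.00464). Atp5b, the catalytic beta subunit of the same head, had 7832, 8273 and 6903 normalized counts in the intravenous libraries, 7621 and 7926 in the eye drop libraries, 7653, 7554 and 7391 in the DED libraries and 5587, 7403 and 7107 in the control libraries. The intravenous and control groups overlapped (log2 difference 0.20 ± 0.17 SE, adjusted p = 0.45, limma), and with library totals the difference was -0.14. The ratio of Atp5e to Atp5b counts within a library, which no scaling affects, was 0.468, 0.558 and 0.374 in the intravenous libraries, 0.178 and 0.216 in the eye drop libraries, 0.185, 0.309 and 0.283 in the DED libraries, and 0.139, 0.214 and 0.179 in the controls. The 3 intravenous ratios were the highest of the 11. Atp5e was named partly for its small p-value between intravenous and control, so the ratio describes the RNA of a chosen pair and is no separate test. The 2 transcripts also differ in length, with 421 bases for Atp5e and 1916 for Atp5b.

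Of the genes for the proton-conducting c ring, which encode one mature protein from 3 loci, Atp5g2 had 3183, 3601 and 2130.1 normalized counts in the intravenous libraries, against 1338, 2084 and 1446 in the control libraries (log2 difference 0.87 ± 0.22 SE, adjusted p = 0.0195, limma). Atp5g3 had 2533, 2716 and 1986 normalized counts in the intravenous libraries, against 1172, 1817 and 1613 in the control libraries (log2 difference 0.66 ± 0.18 SE, adjusted p = 0.0304, limma). Atp5g1 did not pass (log2 difference 0.51 ± 0.21 SE, adjusted p = 0.12, limma). All intravenous values of Atp5g2 and Atp5g3 were above the controls, while the third value of Atp5g1 was inside the control range. All 5 small membrane subunits rose. Among them Atp5md, which takes part in joining ATP synthase dimers, had 1676, 2108 and 1091 normalized counts in the intravenous libraries, against 613, 710.2 and 849 in the control libraries (log2 difference 1.13 ± 0.21 SE, adjusted p = 0.00601, limma). Atp5l, subunit g, had 2417, 2729 and 1522 normalized counts in the intravenous libraries, against 1138, 1129.5 and 1316 in the control libraries (log2 difference 0.86 ± 0.20 SE, adjusted p = 0.0144, limma). In both, the intravenous and control groups did not overlap. With library totals Atp5g2, Atp5g3 and Atp5l lost the call, and 4 of the 5 small membrane subunits passed.

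**Figure D4:**
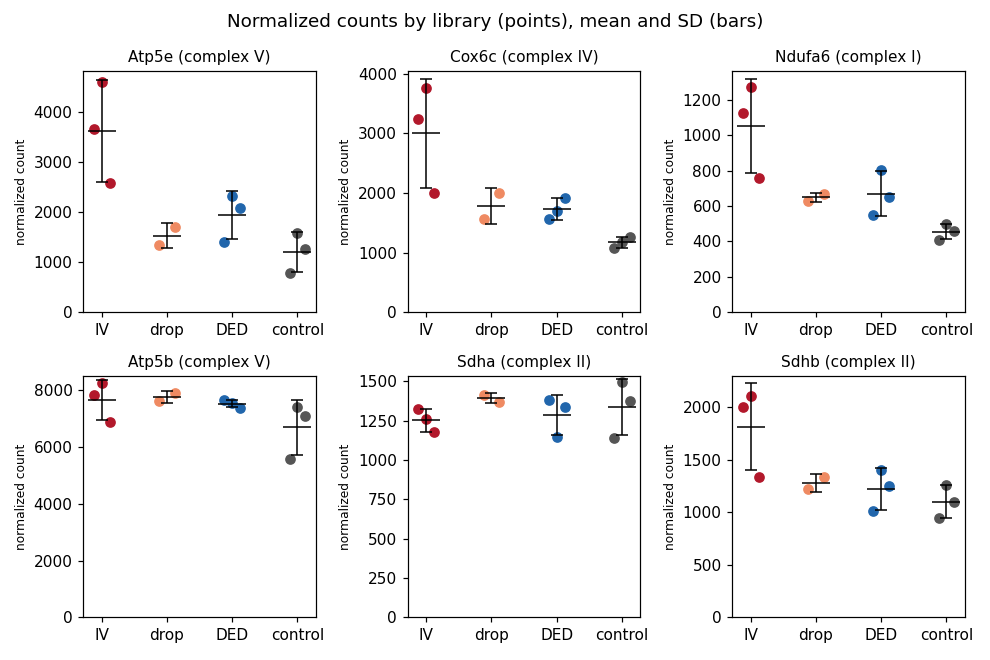
Normalized counts (y axes, from 0) of 6 members in the 4 groups (x axes; IV, intravenous; drop, eye drop), with a point per library, the mean (horizontal tick) and the SD (bars). Atp5e, Cox6c, Ndufa6 and Sdhb are highest in the intravenous group, with no overlap with the controls, while Atp5b and Sdha overlap between the groups.

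Between DED and control corneas, 0 members passed (limma), against 1.25% of all genes, although 80 of 81 fitted differences were above 0 (52.4% of all genes). The median was 0.40 over the members and 0.03 over all genes, and with library totals 0.28 over the members and -0.07 over all genes. At an unadjusted p under 0.05, 27 members were higher (10.1% of all genes) and 0 lower (7.40%). For 33 members all DED libraries exceeded all controls (13.3% of all genes). With library totals 12 members were higher at an unadjusted p under 0.05 (7.22% of all genes), and 25 lay wholly above the controls (9.38%). Cox7a2 (log2 difference 0.73 ± 0.21 SE, adjusted p = 0.0968, limma) and Ndufb4 (log2 difference 0.75 ± 0.22 SE, adjusted p = 0.0983, limma) had the smallest p-values of the 81 members. Ndufb6 (log2 difference 0.67 ± 0.20 SE, adjusted p = 0.1, limma) and Atp5md (log2 difference 0.72 ± 0.21 SE, adjusted p = 0.104, limma) came next. These 4 were chosen for this comparison after their values were seen. Cox7a2 had 1186, 1249.8 and 1241 normalized counts in the DED libraries, against 599, 830.0 and 811 in the controls. Ndufb4 had 699.7, 899 and 782 in the DED libraries, against 393, 536 and 489.8 in the controls. In both genes each DED library was above every control. Ndufb6, an accessory subunit of complex I, had 404, 488 and 474 in the DED libraries, against 233, 339 and 289 in the controls. Atp5md had 1279.9, 1090.1 and 1191 in the DED libraries, against 613, 710.2 and 849 in the controls. In these genes too the groups did not overlap. When intravenous 3 was left out of the shared fit, 13 members passed as higher, against 2.93% of all genes.

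Between intravenous and DED corneas, which compares DED mice injected with exosomes and DED mice given no injection, 0 members passed (limma), against 1.45% of all genes. The median was 0.48 over the members and -0.04 over all genes, 0.26 over the members and -0.25 over all genes with library totals, and -0.13 over the members on unscaled counts. The fitted difference was above 0 for 73 members (46.0% of all genes). Higher at an unadjusted p under 0.05 were 40 members (7.94% of all genes), and 15 members lay wholly above the DED libraries (8.12%). With library totals 12 members were higher (3.39% of all genes) and 1 lower (15.5%) at an unadjusted p under 0.05, and the difference was above 0 for 67 members. Then 2 members lay wholly above (2.47%, against 3.83% of all genes) and 5 wholly below (6.17%, against 16.8%). Cox6c had 3238, 3762 and 1991 normalized counts in the intravenous libraries, against 1564, 1699 and 1919 in the DED libraries (log2 difference 0.75 ± 0.21 SE, adjusted p = 0.0894, limma). Atp5e had 3668, 4619 and 2579, against 1415, 2335 and 2094 in the DED libraries (log2 difference 0.89 ± 0.27 SE, adjusted p = 0.125, limma). In both genes each intravenous value exceeded each DED value. This comparison turned on 1 library: without intravenous 3, 48 members rose, against 4.52% of all genes, and the median was 0.70.

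Between intravenous and eye drop corneas, 0 members passed (limma), as did 0.00% of all genes. The median was 0.54 over the members and -0.02 over all genes, 0.36 over the members and -0.18 over all genes with library totals, and -0.15 over the members on unscaled counts. At an unadjusted p under 0.05, 41 members were higher (5.42% of all genes), while 36 lay wholly above the eye drop libraries (12.4%) and 2 wholly below (12.7%). With library totals 22 members were higher at an unadjusted p under 0.05 (2.58% of all genes), and 17 lay wholly above (6.39%) and 6 wholly below (21.7%). Atp5e had 3668, 4619 and 2579 normalized counts in the intravenous libraries, against 1354 and 1712 in the eye drop libraries (log2 difference 1.21 ± 0.30 SE, adjusted p = 0.345, limma). Without intravenous 3, 40 members rose, against 2.01% of all genes.

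Between eye drop and DED corneas, the members' median of -0.04 was close to the -0.03 of all genes. Of the 81 members 0 passed (limma), against 0.193% of all genes. The fitted difference was above 0 for 35 members (47.4% of all genes), 0 members were higher (3.28% of all genes) and 1 lower (3.77%) at an unadjusted p under 0.05, and 7 members lay wholly above (13.8%) and 13 wholly below (13.7%) the DED libraries. With library totals these 2 counts were 4 (11.2%) and 16 (16.1%). Against the controls, 0 members of the eye drop group passed, against 0.00472% of all genes. The median was 0.31 over the members and 0.01 over all genes (0.15 and -0.13 with library totals), and 19 members were higher at an unadjusted p under 0.05 (5.52%; with library totals 4, against 2.88%). Over all 4 groups together, the F test called 26 members (32.1%), against 4.51% of all genes, with the smallest p for Cox6c (adjusted p = 0.0150, limma). With library totals it called 3 members, against 9.67% of all genes. The comparisons share libraries, so their values are set side by side and their overlap was not tested.

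The size of the difference went with transcript length. Transcript lengths of the members ran from 321.5 to 2900 bases, with a median of 704 (GENCODE annotation of GRCm38, median over protein-coding transcripts, or over all transcripts where a gene had none). Across the 81 members, the rank correlation of length with the log2 difference between intravenous and control was -0.70. Across 21124 genes it was -0.24. Genes are not independent replicates and share the libraries and the counting, so this is a description. The shortest 27 members had a median difference of 1.13, the middle 27 of 0.89 and the longest 27 of 0.51, and 24, 23 and 10 of them rose (88.9%, 85.2% and 37.0%). Over all genes in 3 groups of nearly equal size, the median was 0.26 up to 1522 bases, 0.02 from there to 2995 bases and -0.26 above that, and 12.7%, 5.20% and 2.13% rose. Between DED and control the rank correlation was -0.54 over the members and -0.14 over all genes. The median of the shortest members minus that of the longest was 0.35, 0.43 and 0.28 in the intravenous libraries, -0.21 and -0.12 in the eye drop libraries, -0.25, 0.12 and 0.06 in the DED libraries, and -0.39, -0.10 and -0.24 in the controls. The third intravenous library was with the other two in this measure, although it was apart from them in the median level.

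**Figure D5:**
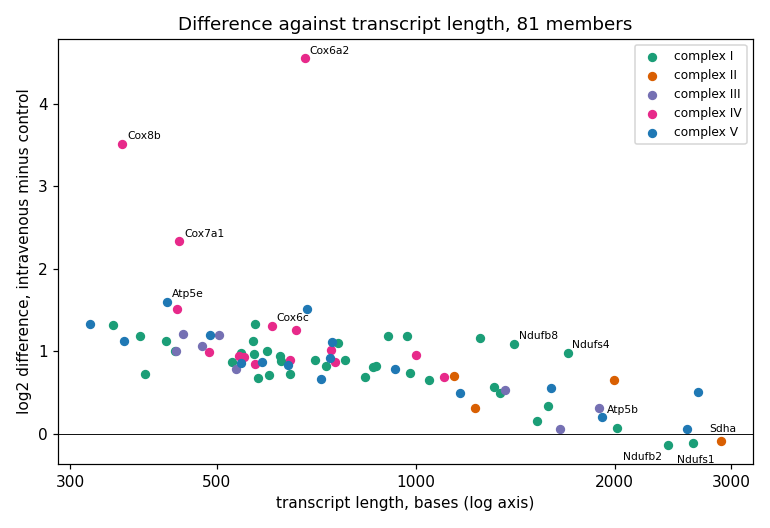
Log2 difference between intravenous and control corneas (y axis) against transcript length in bases (x axis, log scale) for the 81 members, coloured by complex, with 11 genes named. The difference is smaller for longer transcripts, from Atp5e at 1.60 to Sdha at -0.09, and the muscle isoforms Cox6a2, Cox8b and Cox7a1 lie above the rest.

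The rest of the pathway moved unevenly between intravenous and control corneas. For reading the counts below, 1413 of all 21203 genes tested rose and 992 fell, with a median of -0.01. With library totals 2.99% of all genes rose and 18.1% fell, with a median of -0.30. Of the 13 subunits encoded by mitochondrial DNA, 12 were tested and 0 passed, with a median log2 difference of 0.04 (library totals, -0.28). Some had few counts, so a difference in them could be missed. In the intravenous libraries mt-Nd4l had 5.3, 4.2 and 14.5 normalized counts and mt-Nd3 had 14.5, 26.7 and 13.1. The most abundant, mt-Co1, a catalytic subunit of complex IV, had 46128.0, 41809.8 and 30713.7 normalized counts in the intravenous libraries, against 53546.9, 26550.5 and 40090.7 in the controls, and the groups overlapped. Of 36 assembly factors, which help build the complexes, 5 rose and 0 fell, with a median of 0.24. With library totals 1 rose and 3 fell, with a median of -0.10. The 5 include Cox14 (log2 difference 1.19 ± 0.20 SE, adjusted p = 0.00399, limma) and Coa3 (0.86 ± 0.19 SE, adjusted p = 0.0116, limma, and 0.0516 with library totals), both for complex IV. Of 10 electron carrier genes 0 passed in this comparison (library totals, 1 lower), and cytochrome c (Cycs) rose in DED corneas, with 809 ± 98.8 normalized counts in DED and 443 ± 47.1 in control libraries (SD, n = 3 each; log2 difference 0.87 ± 0.20 SE, adjusted p = 0.0431, limma). With library totals the Cycs adjusted p was 0.079 (limma), and the call was lost.

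Of 20 genes for protein import into mitochondria 9 rose, with a median log2 difference of 0.52 (library totals, 4 higher, 3 lower and 0.18), among them Timm8b, a small intermembrane chaperone (1.25 ± 0.21 SE, adjusted p = 0.0035, limma). Of 77 mitochondrial ribosomal protein genes 27 rose, with a median of 0.54 (library totals, 5 higher, 2 lower and 0.19). Of 17 genes of the tricarboxylic acid cycle, which supplies the chain with NADH and succinate, 0 passed, with a median of 0.11 (library totals, -0.23, with 5 of the 17 lower, against 18.1% of all genes). Of 15 regulators of mitochondrial biogenesis 0 rose and 3 fell (992 of all 21203 genes fell), with a median of -0.14 (library totals, 4 lower and -0.48, against 18.1% and -0.30 over all genes). These were Polg, the mitochondrial DNA polymerase (-0.67 ± 0.18 SE, adjusted p = 0.0239, limma), Polrmt, the mitochondrial RNA polymerase (-0.84 ± 0.23 SE, adjusted p = 0.0283, limma), and the coactivator Pprc1 (-0.81 ± 0.23 SE, adjusted p = 0.0324, limma). Outside the mitochondrion, 67 of 89 cytosolic ribosomal protein genes rose, with a median of 0.88 (library totals, 36 genes and 0.54), close to the 0.89 of the respiratory chain. The 2 groups of genes were not tested against each other, and the shift is not shown to be particular to the respiratory chain.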

How the data were processed

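RNA from mouse cornea was sequenced in 12 samples, and the authors deposited 1 table of log2 values for 28548 gene symbols. In 11 columns, 2 to the power of the log2 value minus 1 was whole within 0.01 for 99.9748% of values, so the deposited unit is log2 of a whole count plus 1, with no scaling between samples, although the table's name speaks of normalization. Counts were recovered by rounding. The build was mm9, per the submitters' processing notes, and for the aligner, the counting tool, the annotation and the use of strand the sources used here give no name. The third eye drop column was left out because it equals the mean of the other two. Another 19 lines were left out, 9 named by a date and 10 not whole, holding at most 0.049% of a library.

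Counts were scaled by median-of-ratios size factors and tested as log2(normalized count + 1) with limma 3.58.1 in R 4.3.3 (trend and robust options; residual degrees of freedom 7, median prior 9.59). The test ran on 21203 genes, those reaching a normalized count of 1 in 3 or more libraries, with Benjamini-Hochberg adjustment over all of them in each comparison. All tests were two-sided. The test was checked on simulated data. No count model was fitted to the recovered counts. Other scalings, filters, pseudocounts, voom weights, a replicate block and leaving out each library were tried.

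The members and the lists of other genes were chosen with earlier results of these data known. Members named were those with the smallest p-values in each comparison or in the F test, those highest per kilobase in each complex, all isoform pairs, and the members with the lowest and highest difference. Lengths came from GENCODE annotation of GRCm38 and matched all 81 members, so no coordinate of the files was used.

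The labels number the samples of each group 1 to 3. Deviations from the group means correlated at 0.49, 0.41 and 0.18 between DED and control samples of the same number, so a fit with the replicate block was set beside the reported DED minus control values, which come from the fit without it. Over all 15 same-number pairs the correlation ran from -0.30 to 0.49, and the other comparisons were not treated as paired.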

Additional observations from a re-analysis of the deposited data

How the results depend on the processing

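The member median kept its direction under every alternative tried for DED, eye drop or intravenous against control, but on unscaled counts it was -0.13 for intravenous minus DED and -0.15 for intravenous minus eye drop. Between intravenous and control it was 0.22 on unscaled counts and 0.54 with library totals, against the reported 0.89. Members called there were 57 as reported, 34 with library totals and 2 on unscaled counts (with 4 called lower). They were 3 without limma's trend and robust options and 7 to 71 with each library left out. Without DED 3, eye drop 2 and intravenous 1 (highest in markers of retina, lens or muscle), fewer members and fewer of all genes were called. Of all genes, 6.66% were higher there as reported, 2.99% with library totals, 1.17% on unscaled counts and 0.990% without trend and robust. With each library left out, 0.857% to 11.7% of all genes were higher. With the replicate block, 57 members were called, 56 of them the same genes, and 0 in DED minus control, so the block changed neither count by over 1.5 times. The F test's 26 members (4.51% of all genes) became 3 with library totals (9.67%). They became 13 with 75th percentile scaling, 4 on unscaled counts, 0 without trend and robust and 45 with the third eye drop column kept. With each library left out they ranged from 0 to 68. Apart from library totals, the share of all genes is not given for these alternatives. A change in the members thus cannot be told from a change over all genes there.

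The counts of 0 elsewhere ranged, with each library left out, from 0 to 13 for DED minus control, 0 to 5 for eye drop minus control, 0 to 48 for intravenous minus DED and 0 to 40 for intravenous minus eye drop. The highest of each came without intravenous 3, where 2.93%, 0.887%, 4.52% and 2.01% of all genes were higher in the same order. All were 0 with voom weights. DED minus control had 5 members called with the 2 groups fitted alone, and intravenous minus DED had 1 with the third eye drop column kept. On unscaled counts, where the intravenous libraries had the lowest totals, 6 members were lower in intravenous minus DED and 3 in intravenous minus eye drop. For the fits of the 2 groups alone, with the third eye drop column kept and on unscaled counts, the share of all genes is not given. These counts therefore cannot be read as particular to the members. With control 1 and intravenous 3 left out together, chosen after seeing the data, the counts were 3 for DED minus control and 57 for intravenous minus DED. They were 53 for intravenous minus eye drop and 65 in the F test. The share of all genes is not given for these counts. Between intravenous and control, calls rose over all genes too in this setting, with 8.39% higher, against 6.66% as reported.

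With library totals, 7 of the 81 members turned below 0 between intravenous and control: Atp5a1 (-0.28), Atp5b (-0.14), Ndufa10 (-0.27), Ndufv1 (-0.19), Sdhd (-0.03), Uqcrc1 (-0.29) and Uqcrc2 (-0.04). Other alternatives were followed for the named genes alone. Of these, on unscaled counts, Atp5b (-0.46), Atp5g1 (-0.15), Atp5g3 (0.00), Ndufv2 (-0.09), Sdhc (-0.01) and Sdhd (-0.35) changed sign. With control 1 and intravenous 3 left out, Ndufb2 was 0.41 and Ndufs1 was 0.18. With each library left out, Ndufb2 ranged from -0.31 to 0.16, Ndufs1 from -0.23 to 0.07 and Sdha from -0.20 to 0.00, and Sdha in DED minus control from -0.17 to 0.03. Sdha in DED minus control was also 0.03 with 75th percentile scaling. Of the single-gene values under the alternatives, 189 kept their direction but lost the call, 35 gained it and 1108 changed neither. The cause of these changes was not tested. The 2 or 3 libraries per group limit every count, and the libraries held at least 8956553 counts.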
